A study of Arabidopsis thaliana with 36 samples.

Results

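The acute heat response of primed wild-type seedlings was described from 6 of the 36 RNA-seq libraries of the series, 3 of Col-0 at P + T against 3 of Col-0 at P. Col-0 (WT in the labels) is a common laboratory accession of *Arabidopsis thaliana* and the background of the *hsfa2* and *cdk8* T-DNA mutants, which make up the other genotypes. Whole seedlings were grown at 23 °C, and heat stress (HS) was a water bath at 37 °C for 1 h. Both groups received HS on day 5 (priming), the P + T group received it again on day 7 (triggering), and every group was harvested together on day 7. The comparison P + T/P therefore gives the response to a second HS over the baseline of seedlings that had already met one. Col-0 without HS (NHS, 3 libraries) and with HS on day 7 alone (T, 3 libraries) gave the response to a first HS, T/NHS, which shares no library with P + T/P. Each group has 3 biological replicates. All 36 libraries of the series, mutants included, were fitted together. The p-values therefore rest on the spread between replicates over all 12 groups, and part of this spread may be technical.

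In plants, HS unfolds proteins and activates heat shock factors (HSFs), transcription factors that bind short repeated elements in promoters. Class A1 factors start the response, and they induce further factors such as *HSFA2* together with the heat shock proteins (HSPs), chaperones that hold, refold or disaggregate damaged proteins. A priming HS can leave some of these genes active, or able to respond more strongly, for days, which is known as HS memory.

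Of 36632 genes in the count tables, 20847 passed the filter on low counts and were tested. In P + T/P, 2028 genes (9.73%) were called up and 3662 (17.6%) down, where a call needed an adjusted p under 0.05 and a change of more than 1 on the log2 scale. Among these, 281 rose by more than 5 and 43 fell by more than 5 on that scale. The 281 include the near-identical pseudogene loci and many of the chromosome 2 loci described further on. The reference level mattered for the smaller changes. Scaling by TMM, which takes most genes as unchanged, gave a median log2 fold change (log2FC) of −0.06, and scaling by library size alone shifted the log2FC by a median of −0.75. With TMM, 6342 genes rose and 7128 fell at an adjusted p under 0.05 (edgeR) when changes of any size were counted. These are most of the genes tested, so the assumption of TMM need not hold here. Under library size alone 1136 genes (5.45%) were up and 8598 (41.2%) down, and the share of calls that were up went from 35.6% to 11.7%. Levels are given here as CPM, the counts of a gene relative to the TMM-scaled library size, and every fold change is relative to that reference unless stated. Counted read pairs were 30385013 to 31200694 at P and 29956826 to 30680023 at P + T. The TMM factor was 1.24 to 1.28 at P and 0.69 to 0.78 at P + T. Replicate 3 at P + T had the lowest factor and the largest share of pairs counted in no gene, 11.4% against 9.90% and 10.4%.

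Chaperone genes rose as a group. Of 84 chaperone and co-chaperone genes tested, 62 rose and 1 fell. Together they took 0.875%, 0.832% and 0.876% of the counted pairs in the P libraries, and 18.1%, 18.5% and 19.1% in the P + T libraries. All P + T libraries were thus far above all P libraries. At T the share was 21.1%, 21.0% and 22.7%, above each P + T library, and at NHS it was 0.783%, 0.791% and 0.840%.

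Small HSPs, which bind unfolding proteins and keep them from aggregating, had the highest median log2FC of the chaperone lists. Of 12 cytosolic members 11 rose (median log2FC 9.05, or 8.94 with genes of at most 3 counts per library set to that bound), and all 6 organelle members rose (median 9.96). The gene *AT1G59860*, annotated as an HSP20-like chaperone, was at 0.600, 1.54 and 2.16 CPM in the P libraries and at 5142, 5420 and 7220 CPM in the P + T libraries. Its log2FC was 12.02 ± 1.05 (SE here and below, adjusted p = 2.90e-11). Its relative *AT1G07400* went from 2.30, 3.40 and 4.27 to 10579, 12333 and 14186 CPM, a log2FC of 11.86 ± 0.99. *HSP23.6*, which encodes a mitochondrial small HSP, went from 0.5001, 1.05 and 1.501 to 4379, 5435 and 6494 CPM (log2FC 12.39 ± 1.01, adjusted p = 6.93e-12). For these genes the P libraries were low and differed among themselves, and no P library came near a P + T library. *AT1G52560*, a further HSP20-like gene on the organelle list, rose by a log2FC of 11.34 ± 0.58, from 0.575, 0.863 and 1.21 CPM to 2100, 2311 and 2459 CPM. Under library size alone 10 of the 12 cytosolic members rose and 1 fell.

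ATP-driven chaperones rose as well. *HSP101*, the disaggregase that plants need to survive severe heat, was at 3.95, 6.59 and 9.83 CPM at P and at 14909, 15623 and 16094 CPM at P + T (log2FC 11.16 ± 0.78, adjusted p = 1.80e-13). Its mitochondrial relative *CLPB4* rose from 10.98, 10.3 and 13.2 to 1009, 923 and 1003 CPM (log2FC 6.41 ± 0.17). Of 7 genes for HSP100 proteins, HSA32 and Clp subunits 4 rose and none fell. *HSP70* (*AT3G12580*), a cytosolic refolding chaperone, went from 34.0, 40.5 and 54.1 to 21494, 22520 and 24588 CPM (log2FC 9.06 ± 0.62), and *HSP70B* from 5.10, 7.08 and 9.17 to 12482, 13423 and 14947 CPM (log2FC 10.90 ± 0.70). Of 17 HSP70 and HSP110 genes 14 rose. Under library size alone 14 rose and 1 fell.

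All 7 *HSP90* genes tested rose, with a median log2FC of 2.73, and 5 of them rose under library size alone. HSP90 matures client proteins and holds class A HSFs inactive in unstressed cells. *HSP90.1* was at 15.6, 18.4 and 28.0 CPM at P and 21124, 22402 and 25422 CPM at P + T, a log2FC of 10.12 ± 0.71, and *HSP90.2* rose by 6.46 ± 0.16 from 97.7, 92.2 and 95.6 to 8137, 8652 and 8306 CPM. The co-chaperones were divided, with 12 of 24 up and 1 down (11 and 2 under library size alone). *BAG6*, a calmodulin-binding co-chaperone, rose from 20.4, 27.8 and 25.2 to 12534, 11936 and 11897 CPM (log2FC 8.95 ± 0.40). *HOP3*, an adaptor between HSP70 and HSP90, rose by a log2FC of 8.69 ± 0.43. The gene that fell was *BAG1*, from 40.9, 41.7 and 47.6 to 15.6, 17.5 and 14.9 CPM (log2FC −1.44 ± 0.10). Among 11 chaperonins and GrpE proteins 8 rose and none fell. The highest were *MGE2*, a mitochondrial nucleotide exchange factor (log2FC 5.60 ± 0.15), and *CPN60B2*, a chloroplast chaperonin subunit (log2FC 4.04 ± 0.17).

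**Figure D1:**
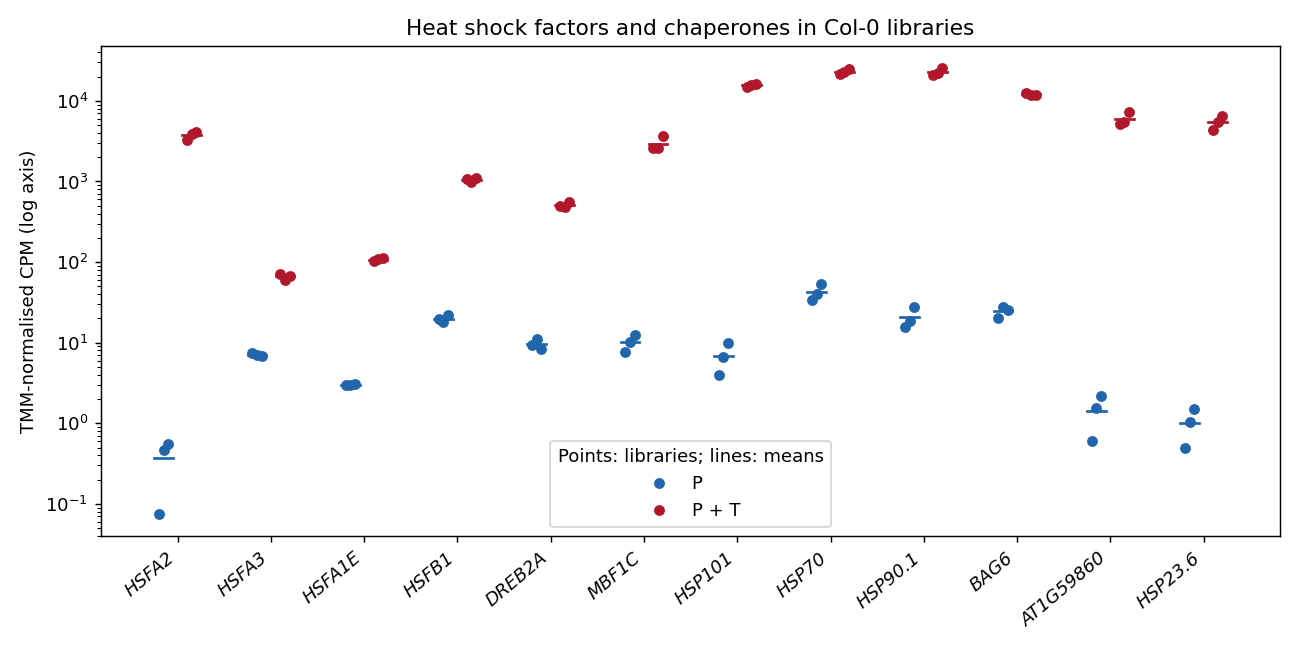
TMM-normalised CPM on a log axis for 12 heat shock factor, regulator and chaperone genes, one point per Col-0 library (blue P, red P + T), with a line at each group mean. In every gene shown all 3 libraries at P + T were above all 3 at P, and *HSFA2* spanned the widest range, from a mean of 0.366 CPM to 3767 CPM.

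Proteins with a J domain hand clients to HSP70. Of 115 genes whose annotation names DNAJ, 18 rose (15.7%) and 16 fell (13.9%), against 9.73% and 17.6% of all genes tested, and under library size alone 13 rose and 37 fell. *AT1G71000* was at 0.150, 0.235 and 0.132 CPM at P and at 962, 1093 and 982 CPM at P + T, a log2FC of 12.49 ± 0.98. *ERDJ3A*, of the endoplasmic reticulum (ER), rose from 2.25, 2.56 and 2.87 to 898, 941 and 878 CPM (log2FC 8.47 ± 0.29). At the other end *AT2G17880* fell from 23.8, 26.2 and 25.5 to 3.73, 3.004 and 4.19 CPM (log2FC −2.79 ± 0.24), and *AT3G04980* fell with a log2FC of −1.97 ± 0.22.

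Among the HSFs, the induced factors rose and some constitutive ones fell. Of 14 class A genes tested 8 rose and 2 fell, with 7 and 5 under library size alone. *HSFA2* had the highest log2FC of all named genes, 13.33 ± 1.08 (adjusted p = 6.36e-12), with 0.0750, 0.470 and 0.553 CPM in the P libraries and 3309, 3929 and 4062 CPM in the P + T libraries. *HSFA7B* went from 0.05001, 0.157 and 0.105 to 441, 427 and 499 CPM (log2FC 12.05 ± 0.72). *HSFA3*, which acts with HSFA2 in HS memory, went from 7.40, 7.00 and 6.74 to 70.4, 60.5 and 68.0 CPM (log2FC 3.23 ± 0.16, adjusted p = 2.79e-17). The class A1 factors, the first to act, did not move together. *HSFA1E* rose from 2.98, 3.01 and 3.06 to 104, 108 and 111 CPM (log2FC 5.15 ± 0.17), and *HSFA1D* from 9.55, 10.1 and 9.38 to 61.3, 52.3 and 70.04 CPM (log2FC 2.66 ± 0.13). *HSFA1A* fell from 8.002, 9.15 and 9.61 to 3.06, 3.09 and 3.51 CPM (log2FC −1.47 ± 0.16, adjusted p = 4.28e-09). For *HSFA1B* the levels were 16.8, 21.1 and 20.4 and 14.1, 13.6 and 13.8 CPM, a log2FC of −0.49 ± 0.11, below the size a call needs, but −1.24 under library size alone. *HSFA8* fell from 9.28, 10.4 and 8.32 to 1.34, 1.85 and 1.68 CPM (log2FC −2.52 ± 0.18).

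Of 5 class B and C genes 3 rose and none fell. *HSFB1*, a repressor of the class, rose from 19.5, 18.3 and 21.9 to 1063, 980.3 and 1112 CPM (log2FC 5.72 ± 0.16), and *HSFB2B* by a log2FC of 5.47 ± 0.22. Of 10 other transcription factors tied to heat 5 rose. *MBF1C*, a coactivator, went from 7.73, 10.3 and 12.3 to 2601, 2582 and 3669 CPM (log2FC 8.19 ± 0.48, adjusted p = 1.89e-15). *DREB2A*, which activates *HSFA3*, went from 9.43, 11.1 and 8.46 to 492, 479 and 556 CPM (log2FC 5.72 ± 0.21, adjusted p = 2.37e-20).

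The heat shock element, the binding site of HSFs, is built of alternating GAA and TTC units. The search took 3 units in a row, GAA, TTC and GAA with any 2 bases between neighbours, or the reverse complement, TTC, GAA and TTC with the same gaps, in the 300 bases before each annotated gene start in TAIR10.1, on both strands, and such matches can overlap each other. They were found before 0.518% of all genes tested, 1.82% of genes up in P + T/P, 0.382% of genes down and 0.376% of genes not called. Among up genes with a log2FC above 5 the share was 4.27%. Of 113 chaperone and heat transcription factor genes tested 7 had a match, and all 7 rose, while 78 of the 113 rose in all. A window without these letters can hold looser elements, and it depends on the annotated start. The 60 bases around the match, or around the one nearest to the gene, are printed for the 7 genes, 5′ to 3′ on the strand of the gene, with the matched letters in capitals. They are from RefSeq's TAIR10.1 and show how the same element lies before a factor, a chaperone and a regulator.
HSP17.4 (chr3:16984868-16984927, minus strand): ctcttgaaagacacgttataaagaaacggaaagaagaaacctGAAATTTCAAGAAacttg
AT1G53540 (chr1:19980222-19980281, plus strand): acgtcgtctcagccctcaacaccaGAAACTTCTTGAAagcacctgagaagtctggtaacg
HSP90.1 (chr5:21352257-21352316, plus strand): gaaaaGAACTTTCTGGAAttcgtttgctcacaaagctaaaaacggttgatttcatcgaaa
HSFA2 (chr2:11135512-11135571, plus strand): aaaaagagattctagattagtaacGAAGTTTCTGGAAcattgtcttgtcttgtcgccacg
HSFA7A (chr3:19264975-19265034, plus strand): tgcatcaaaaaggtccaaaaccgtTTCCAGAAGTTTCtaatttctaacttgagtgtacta
HSFA7B (chr3:23399055-23399114, plus strand): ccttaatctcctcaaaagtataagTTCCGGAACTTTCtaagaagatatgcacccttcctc
DREB2A (chr5:1602017-1602076, plus strand): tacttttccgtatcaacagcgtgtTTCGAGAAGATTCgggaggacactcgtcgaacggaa
The match began 88 bases before the start of *HSFA2*, 157 before *HSFA7B* and 142 before *HSFA7A*. It began 295 bases before *HSP90.1*, 164 before *DREB2A*, and 18 and 53 before the small HSP genes *HSP17.4* and *AT1G53540*. The log2FC was 5.98 ± 0.17 for *HSFA7A*, 8.78 ± 0.98 for *HSP17.4* and 9.32 ± 0.93 for *AT1G53540*.

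Beyond the chaperones of the cytosol, genes of ER folding and polyubiquitin genes rose in part. Of 18 genes for ER folding 9 rose and none fell, while under library size alone 7 rose and 3 fell. *BIP1*, the HSP70 of the ER lumen, went from 131, 129 and 135 to 1752, 1612 and 1871 CPM (log2FC 3.73 ± 0.12). Of 5 polyubiquitin genes 4 rose. *UBQ10*, often used as a reference gene, rose from 1360, 1541 and 1283 to 6034, 5921 and 6744 CPM (log2FC 2.16 ± 0.12), and *UBQ14* by a log2FC of 3.38 ± 0.18. Of 42 proteasome genes 3 rose (7.14%, near the 9.73% of all genes tested) and 1 fell (2.38%, against 17.6%). *PBC2*, a subunit of the core particle, had a log2FC of 1.43 ± 0.09, and *FUS5*, a COP9 signalosome subunit that the annotation search took in, one of 2.48 ± 0.13. The rise of *PBC2* was not called under library size alone (log2FC 0.68).

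Genes for protective metabolites and antioxidants rose selectively. Of 11 genes for inositol, galactinol and proline synthesis 5 rose. *GolS2*, which makes galactinol for raffinose sugars, went from 0.675, 0.418 and 0.5005 to 181, 204 and 193 CPM (log2FC 8.49 ± 0.37), and *MIPS2*, which makes inositol phosphate, from 15.9, 17.9 and 20.5 to 2819, 2521 and 3145 CPM (log2FC 7.29 ± 0.17). Of 18 antioxidant enzymes 3 rose (16.7%, against 9.73% of all genes tested) and none fell. Under library size alone 1 rose and 2 fell, where 5.45% and 41.2% of all genes did. The one that rose under both was *APX2*, a cytosolic ascorbate peroxidase and a known HS memory gene, from 5.40, 6.56 and 8.06 to 2403, 2073 and 2602 CPM (log2FC 8.47 ± 0.32, adjusted p = 3.54e-20). Its close relative *APX1* went from 238, 228 and 218 to 709, 684 and 775 CPM (log2FC 1.67 ± 0.13, and 0.91 without a call under library size alone). Of 13 cold and abscisic acid (ABA) response genes 9 rose and none fell (6 and 1 under library size alone). The dehydrin genes *COR47* and *ERD10* rose by a log2FC of 2.84 ± 0.14 and 2.59 ± 0.16, and *COR47* reached 3421, 3513 and 4188 CPM.

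Splicing, clock and light genes gave smaller changes. Of 19 SR splicing factor genes 5 rose (26.3%, against 9.73% of all genes tested) and none fell. *SR30* went from 33.4, 30.7 and 29.2 to 332, 291 and 309.9 CPM (log2FC 3.32 ± 0.15), and *SCL33* by a log2FC of 2.83 ± 0.11. Of 21 clock genes 7 rose (33.3%) and 3 fell (14.3%), against 9.73% and 17.6% of all genes tested. Under library size alone 2 rose and 6 fell, where 5.45% and 41.2% of all genes did. *LNK1* and *PRR9*, expressed in the morning, rose by a log2FC of 3.68 ± 0.19 and 3.67 ± 0.19. *FKF1*, a blue light receptor of the flowering pathway, fell from 18.5, 25.2 and 15.3 to 1.76, 2.49 and 1.25 CPM (log2FC −3.41 ± 0.25), and *PRR5* fell with a log2FC of −1.67 ± 0.18. Of 12 light and thermosensing genes 2 rose (*HY5* and *PIF7*, 16.7%) and 2 fell (*PHYD* and *PHYE*, 16.7%, close to the 17.6% of all genes), with 0 up and 6 down under library size alone. *PHYD* went from 16.004, 17.6 and 11.9 to 5.62, 5.28 and 3.56 CPM (log2FC −1.65 ± 0.18). The autophagy list had 1 call in 10 genes, close to the share of 9.73% over all genes, *ATG8H* (log2FC 1.54 ± 0.16), and none under library size alone.

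**Figure D2:**
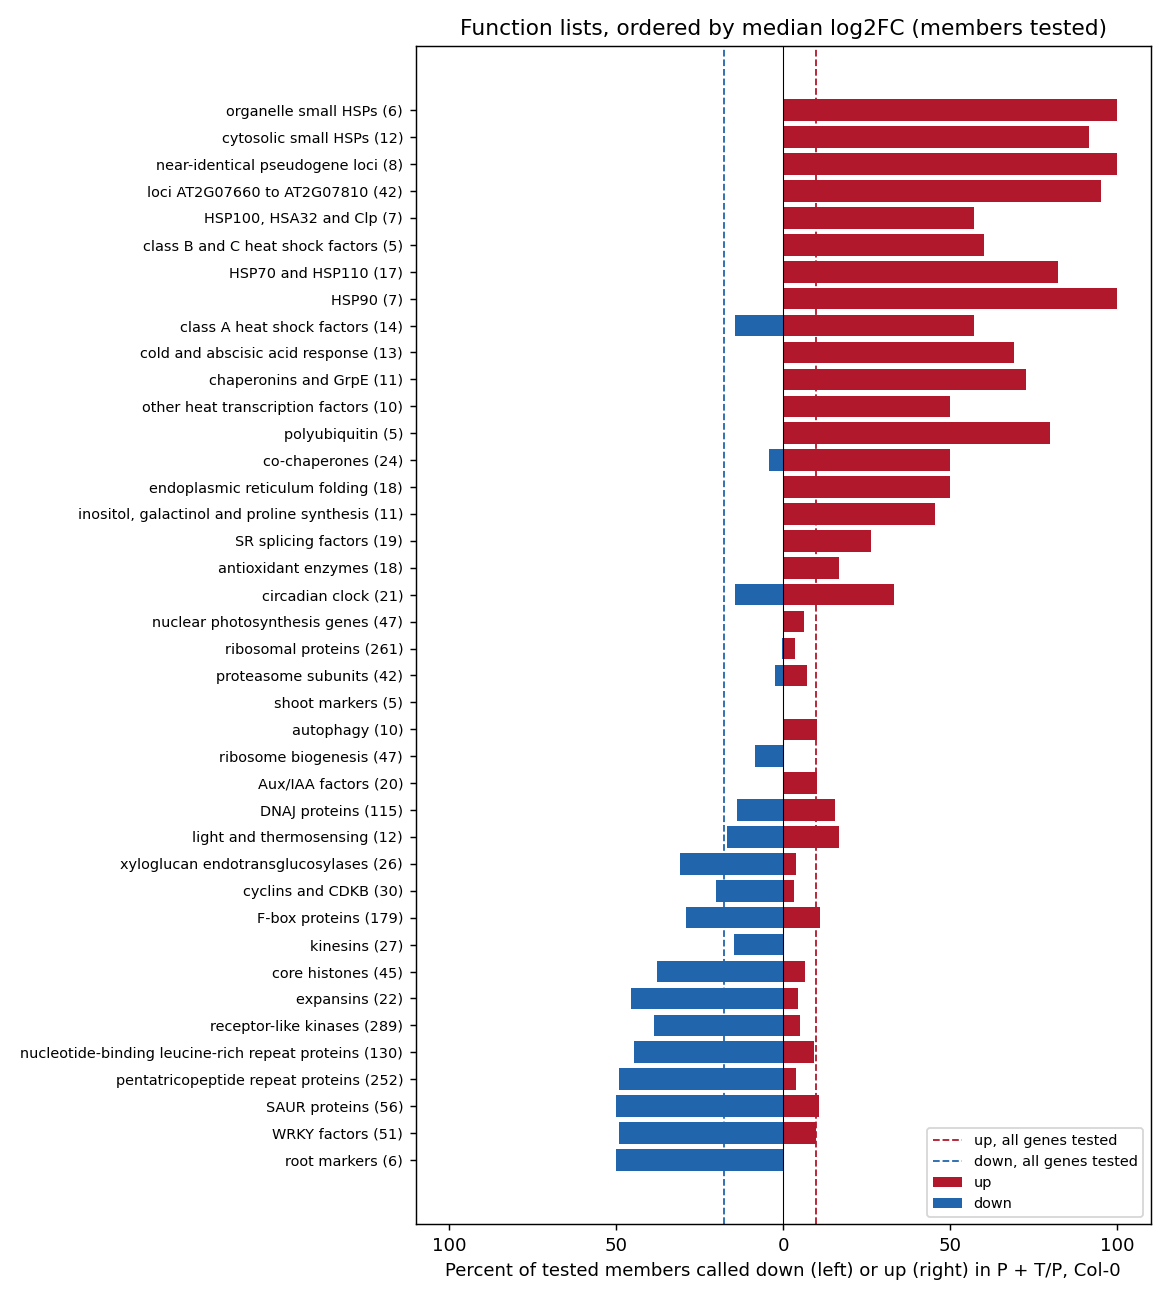
Percent of tested members called down (left, blue) or up (right, red) in P + T/P for each function list, ordered by median log2FC, with the number of members tested in brackets and dashed lines at the shares over all genes tested. All chaperone and HSF lists have 50% or more of their members up, with the small HSPs at the top, the near-identical pseudogene loci and the chromosome 2 loci follow them, and the lists for pentatricopeptide repeat, WRKY and SAUR genes and the root markers lie at the bottom with close to 50% down.

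The fall was spread over regulatory and signalling families. Against 17.6% of all genes tested, 124 of 252 pentatricopeptide repeat (PPR) genes fell (49.2%), 25 of 51 WRKY genes (49.0%), 58 of 130 nucleotide-binding leucine-rich repeat (NLR) genes (44.6%) and 112 of 289 receptor-like kinase genes (38.8%). Their median log2FC was −0.996, −1.02, −0.92 and −0.82. In each of these lists more members fell under library size alone, namely 189, 37, 90 and 209. PPR proteins edit and process organelle RNA, WRKY factors regulate defence, and NLR proteins and receptor-like kinases detect pathogens and other signals. *RPM1*, an NLR resistance gene, fell from 10.3, 12.3 and 11.8 to 1.64, 1.07 and 1.20 CPM (log2FC −3.13 ± 0.20, adjusted p = 1.56e-14). *WRKY22*, a defence factor, fell from 37.2, 48.1 and 41.7 to 5.96, 6.82 and 5.30 CPM (log2FC −2.81 ± 0.16), and *WRKY72* fell with a log2FC of −3.15 ± 0.26. The PPR genes *AT2G35030* and *AT1G09820* fell with a log2FC of −3.25 ± 0.27 and −3.01 ± 0.31, and the kinase genes *AT5G39020* and *AT5G06740* fell with a log2FC of −3.01 ± 0.44 and −2.95 ± 0.32.

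The shares of members that rose were near or below the 9.73% of all genes tested, with 3.97% of PPR, 9.23% of NLR, 9.80% of WRKY and 5.19% of receptor-like kinase genes. Among the 10 PPR genes that rose were *AT1G33350*, from 1.25, 1.25 and 0.553 to 130.5, 159.6 and 113 CPM (log2FC 7.03 ± 0.27), and *CRR4*, which acts in chloroplast RNA editing (log2FC 5.83 ± 0.32). Of the NLR genes 12 rose, among them *AT1G66090*, from 4.20, 6.06 and 4.19 to 57.0, 81.3 and 47.5 CPM (log2FC 3.68 ± 0.29), and *AT4G16940* (log2FC 3.55 ± 0.20). *WRKY75* and *WRKY46* rose by 2.46 ± 0.23 and 2.21 ± 0.39, 2 of 5 WRKY genes that were up. Of 15 kinase genes that rose, *AT3G59730* had a log2FC of 5.44 ± 0.26 and *AT1G62950* one of 2.52 ± 0.17. *AT3G59730* lies beside the pseudogene locus *AT3G59720*, one of the near-identical loci described further on.

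Among growth genes, SAUR, expansin and wall-loosening enzyme genes fell in part. Of 56 genes for SAUR proteins, which promote cell expansion downstream of auxin, 28 fell (50%) and 6 rose (10.7%). Over all genes tested these shares were 17.6% and 9.73%. *AT2G21210* fell from 14.95, 15.4 and 13.0 to 2.64, 1.63 and 2.31 CPM (log2FC −2.72 ± 0.33) and *AT3G12830* fell with a log2FC of −2.77 ± 0.30, while *AT4G12410* rose by 6.20 ± 0.34 to 8.18, 7.00 and 6.498 CPM. Of 22 expansins, which loosen the cell wall, 10 fell (45.5%), among them *EXPA4* (log2FC −2.35 ± 0.29) and *EXPA14* (log2FC −2.27 ± 0.18). One, *EXPA8*, had a log2FC of 1.16 ± 0.25, which was not called under library size alone. Of 26 xyloglucan endotransglucosylase genes 8 fell (30.8%), with *XTH33* at −2.72 ± 0.36 and *XTH12* at −2.31 ± 0.47. None of the 20 Aux/IAA genes fell with TMM, but 6 did under library size alone, where 41.2% of all genes did.

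Of 45 core histone genes 17 fell (37.8%), among them *AT3G46320* (log2FC −2.94 ± 0.27) and *AT2G28720* (log2FC −2.78 ± 0.38), and 3 had a call up. Of 30 cyclin and *CDKB* genes 6 fell (20.0%), with *CYCD6;1* at −2.56 ± 0.42 and *CYCA3;4* at −2.45 ± 0.23, against 17.6% of all genes tested. Of 27 kinesins 4 fell (14.8%), including *ZWI*, a motor of trichome shape (log2FC −1.61 ± 0.18), and *AT1G52320* (log2FC −1.15 ± 0.14). For the 179 F-box genes 52 fell (29.1%) and 20 rose (11.2%). *FBS1*, a stress-induced F-box gene, rose from 1.55, 2.77 and 2.11 to 136, 168 and 149.9 CPM (log2FC 6.14 ± 0.30), while *AT2G43445* and *AT5G07610* fell with a log2FC of −2.85 ± 0.24 and −2.56 ± 0.25. With library size alone 28 histone, 17 cyclin and *CDKB*, 18 kinesin and 100 F-box genes fell, where 41.2% of all genes did.

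Markers of seedling parts moved beside these groups. All 11 shoot and root markers were detected at P. None of 5 shoot markers was called (log2FC 0.17 to 0.84 with TMM, while 4 of the 5 were negative, with a list median of −0.30, and none was called under library size alone). Of 6 root markers 3 fell and none rose. *COBL9*, expressed in root hair cells, fell from 8.45, 11.3 and 8.80 to 0.839, 1.33 and 0.770 CPM (log2FC −3.27 ± 0.22). *SCR* and *SHR*, which pattern the root, fell with a log2FC of −2.12 ± 0.22 and −1.75 ± 0.26, and *EXPA7*, a further root hair gene, had a log2FC of −0.34 ± 0.26. *PLT1* and *PHT1;1* had a log2FC of −0.93 ± 0.36 and −0.48 ± 0.11, below the size a call needs. Together the root markers took 0.0145% to 0.0160% of the counted pairs at P and 0.00376% to 0.00442% at P + T, and under library size alone all 6 fell. The shoot markers also took a smaller share, 7.33%, 7.05% and 6.75% at P and 4.81%, 4.98% and 5.30% at P + T. In whole seedlings fewer cells of a type and less RNA per cell cannot be told apart, and the part of root cells in the falls of growth genes was not tested.

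The genes with the lowest log2FC among those with a mean of at least 1 CPM came from other families. *PAR1*, a negative regulator of shade avoidance, fell from 12.7, 12.9 and 16.4 to 1.13, 0.944 and 0.530 CPM (log2FC −3.99 ± 0.21), and *SDD1*, a protease that limits stomatal density, from 7.15, 8.08 and 7.59 to 0.419, 0.472 and 0.481 CPM (log2FC −4.05 ± 0.22). *AT3G48390*, which encodes an MA3 domain protein, went from 16.8, 18.3 and 10.1 to 0.881, 0.558 and 0.578 CPM (log2FC −4.47 ± 0.30). *sks16* and *ZFP3*, a zinc finger gene, fell with a log2FC of −4.07 ± 0.27 and −3.95 ± 0.37, and *IDL5*, from a family of small peptides, had a log2FC of −4.03 ± 0.56. At P + T, 4 of the genes named here were at 3 counts or fewer in every library, and for these the ratio of P to P + T is given with a 95% exact interval that covers counting error only. It was 137 (24.3 to 5424) for *DLAH*, an alpha/beta-hydrolase gene that was at 1.93, 2.196 and 1.92 CPM at P. It was 91.5 (25.1 to 759) for *AT3G43850*, 89.4 (24.5 to 742) for *AT1G23200* and 29.7 (12.6 to 92.2) for *AT3G01513*. In the other direction *AT5G53680*, an RNA-binding protein gene with at most 2 counts in a P library, rose to 169, 189 and 157 CPM, a ratio of 6667 (2281 to 32336). *AT2G04135*, uncharacterized, had no count in any P library and was at least 175-fold higher at P + T, taking 3 counts per library as the floor. *AT1G21940*, also uncharacterized, went from 0.2001, 0.157 and 0.184 to 531, 467 and 508 CPM (log2FC 11.41 ± 0.53), and lies beside the near-identical pseudogene locus *AT1G21945*.

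Genes of photosynthesis and the ribosome were mostly not called, as were 15157 of all 20847 genes tested. Of 47 nuclear photosynthesis genes 3 were called up (6.38%) and none down, against 9.73% and 17.6% of all genes tested. Their median log2FC of 0.66 was −0.09 under library size alone. *RBCS2B* went from 2249, 1677 and 1694 to 3804, 4116 and 5138 CPM (log2FC 1.22 ± 0.16), and *PSBY* had a log2FC of 1.13 ± 0.40 with an adjusted p of 0.0136. Neither was called under library size alone, and *PSBY* was not called without replicate 1 at P (log2FC 0.97), replicate 2 at P (1.04, adjusted p = 0.0506) or replicate 3 at P + T (0.74). The number of photosynthesis genes called up ran from 1 without replicate 1 at P, or without replicate 3 at P + T, to 8 without replicate 3 at P. Of 261 ribosomal protein genes 9 were up (3.45%) and 1 down (0.383%), both below the shares over all genes, with a median log2FC of 0.59. Under library size alone 2 were up and 9 down (median −0.17). The number called up ran from 5 without replicate 3 at P + T to 18 without replicate 2 at P + T. *AT5G63300* had the highest log2FC of the ribosomal genes named, 2.85 ± 0.17, and *AT5G47940* was the one called down (−1.59 ± 0.18). Among 47 ribosome biogenesis genes 4 fell (8.51%, below the 17.6% of all genes tested), including *AT5G06930* (−1.74 ± 0.19) and *AT4G39870* (−1.24 ± 0.13), and none rose. Under library size alone 13 fell, where 41.2% of all genes did.

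The response to the second HS was then set against that to the first. Of the 2028 genes up in P + T/P, 1454 (71.7%) were also up in T/NHS, which is 80.4% of the 1809 genes up there (8.68% of those tested). Of the 3662 genes down, 2700 (73.7%) were also down in T/NHS, 75.9% of the 3558 down there (17.1%). The difference between both responses was tested directly in the same model. It was called for 411 genes with a higher (1.97%) and 168 with a lower log2FC (0.806%) in P + T/P. Both counts kept within 1.5 times when any single library was left out. Leaving out replicate 3 of every group, an alternative chosen after seeing the data, gave 315 and 105. Testing against a difference of 1 on the log2 scale left 57 and 7.

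**Figure D3:**
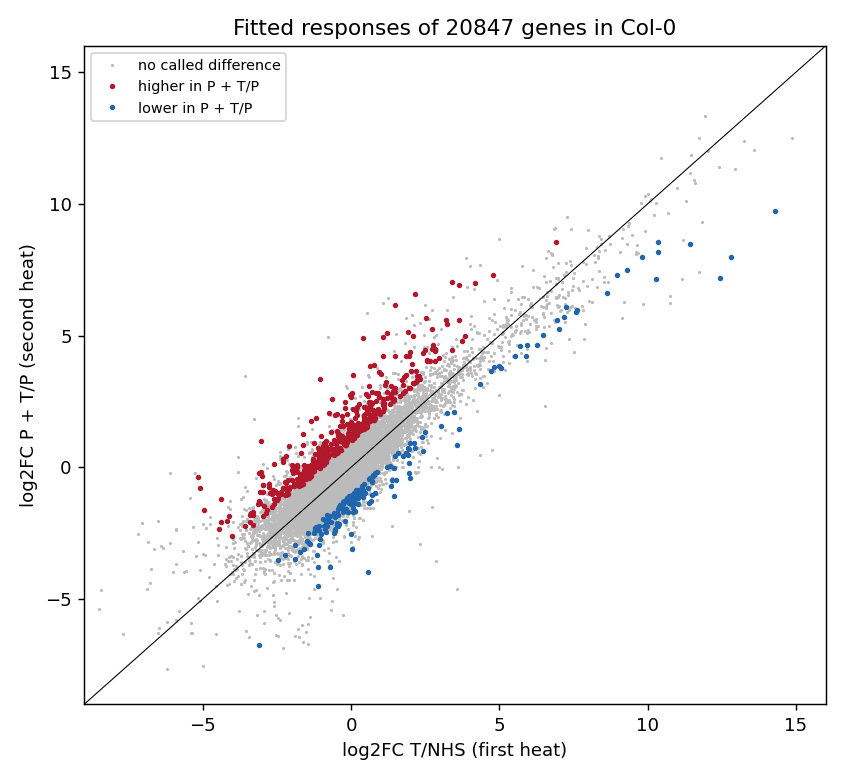
Fitted log2FC of each tested gene in Col-0 for the first HS (T/NHS, horizontal) and the second (P + T/P, vertical), with the line of equal response. Red points are the 411 genes with a called higher response in P + T/P and blue points the 168 with a lower one, and the most strongly induced blue points lie at log2FC above 10 for T/NHS.

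Genes with a higher second response that were also up in P + T/P mostly stood higher at P + T than at T. Of the 411 genes 214 were up in P + T/P, 31 down and 166 not called. Of the 214, 192 were called above T at P + T (3.04% of all genes tested were), and none was called below NHS at P (0.0192%). The difference between the responses equals P + T/T minus P/NHS. Selecting on it favours such calls, so these counts describe the genes and are no separate test. *HSFA1E* was at 3.18, 3.46 and 3.17 CPM at NHS, 13.9, 12.7 and 10.6 CPM at T, 2.98, 3.01 and 3.06 CPM at P and 104, 108 and 111 CPM at P + T. Its baseline was alike in both controls, all P + T libraries were above all T libraries, and the difference between the responses was 3.23 ± 0.22 (adjusted p = 1.23e-11). *MIPS2* had 303, 299 and 322 CPM at T against 2819, 2521 and 3145 CPM at P + T, with 11.7, 11.1 and 10.97 CPM at NHS and 15.9, 17.9 and 20.5 CPM at P (difference 2.51 ± 0.18, adjusted p = 6.70e-11). For the PPR gene *AT1G33350* the levels were 11.04, 12.2 and 7.51 CPM at T and 130.5, 159.6 and 113 CPM at P + T (difference 3.64 ± 0.37, adjusted p = 7.95e-08). Several genes described here overlap another annotated gene, among them *MIPS2*, *AT1G33350*, *AT4G20350*, *DREB2A*, *HSFA3*, *MBF1C*, *HSP101*, *UBQ14* and *RPM1*. Reads of the shared part may be missing from their counts or belong to the other gene.

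Some named genes with a high difference had few counts. *HB21*, a homeobox gene, was at 0.423, 0.262 and 0.192 CPM at T and at 3.78, 2.75 and 1.73 CPM at P + T, with no more than 3 counts in any P library (difference 4.70 ± 0.95, adjusted p = 0.00176). *HAI3*, an ABA-induced protein phosphatase gene, was at 0.169, 0.306 and 0.144 CPM at T and at 2.18, 1.85 and 2.50 CPM at P + T (difference 3.87 ± 0.79, adjusted p = 0.00195, or 0.0719 without replicate 1 at NHS). At so few counts the fitted differences of both depend on the prior count of the model. The ratio of P + T to P was 81.3 (31.2 to 301) for *HB21* and 35.9 (17.0 to 90.9) for *HAI3*, with the same kind of counting interval. *AT2G21820*, a seed maturation protein gene, went from 0.175, 0.470 and 0.421 to 42.0, 32.8 and 56.8 CPM, with 3.43, 3.80 and 4.86 CPM at T (difference 3.31 ± 0.52, adjusted p = 8.21e-05). *AT4G20350*, an oxidoreductase gene, was at 1.46, 1.65 and 2.17 CPM at NHS and 1.52, 1.97 and 2.02 CPM at T (T/NHS log2FC 0.06), and at 15.8, 13.6 and 22.8 CPM at P + T (difference 3.46 ± 0.30, adjusted p = 1.62e-09). The NLR gene *AT4G16940* and the ribosomal gene *AT5G63300* had differences of 2.55 ± 0.29 and 1.36 ± 0.25, and the SAUR gene *AT3G61900* one of 2.13 ± 0.44 that was not called without replicate 3 of every group (adjusted p = 0.0533).

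Genes with a lower second response included some with a raised baseline and others with a lower peak. Of the 168 genes 34 were up in P + T/P. Of these, 14 were called above NHS at P, against 41 of all 20847 genes (0.197%), 15 were called below T at P + T (1.63% of all genes), and none was both. Selection on the difference favours both kinds of call here as well. Of the 84 chaperone genes 10 had a lower and 2 a higher second response, and 7 were above NHS at P.

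*HSP18.2*, a cytosolic small HSP gene on chromosome 5, was at 1.17, 1.04 and 1.02 CPM at NHS and at 47.8, 50.1 and 61.5 CPM at P, a log2FC of 5.62 (adjusted p = 3.50e-08). After HS it was at 5803, 5786 and 6334 CPM at T and 6929, 7330 and 9092 CPM at P + T. The response was 12.43 for the first and 7.20 ± 0.50 for the second HS, a difference of −5.24 ± 0.62 (adjusted p = 8.36e-07), while every P + T library was above every T library. *HSP21*, a chloroplast small HSP, had the same shape. Its levels were 0.339, 0.0509 and 0.188 CPM at NHS and 8.03, 10.6 and 11.3 CPM at P, then 1406, 1419 and 1421 CPM at T and 2300, 2426 and 2852 CPM at P + T (difference −4.84 ± 0.84, adjusted p = 2.89e-04). *HSP22.0*, an HSP20-like gene on the organelle list, went from 4.38, 4.97 and 7.56 to 4172, 4817 and 5519 CPM, with 0.156, 0.0509 and 0.241 CPM at NHS and 2764, 2877 and 3472 CPM at T (difference −4.54 ± 1.08, adjusted p = 0.00831). For these 3 genes P + T was not called against T (log2FC 0.38, 0.84 and 0.67).

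*APX2* combined a raised baseline with a higher peak. It was at 0.261, 0.0509 and 0.0537 CPM at NHS and at 5.40, 6.56 and 8.06 CPM at P, and at 363, 334 and 344 CPM at T against 2403, 2073 and 2602 CPM at P + T (P + T/T log2FC 2.77, adjusted p = 5.58e-10). Its response in fold was therefore lower after priming (difference −2.96 ± 0.53, adjusted p = 3.93e-04), though its level was the highest in P + T. At NHS no library of *APX2*, *HSP21* or *HSP22.0* had more than 10, 13 and 9 counts, so that the size of their differences rests on few reads.

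*DREB2A* was of the other kind. Its baseline was alike, 7.40, 9.77 and 9.76 CPM at NHS and 9.43, 11.1 and 8.46 CPM at P, and it reached 1246, 1209 and 1442 CPM at T but 492, 479 and 556 CPM at P + T (difference −1.46 ± 0.25, adjusted p = 2.49e-04). *UBQ14* and *FUS5* had differences of −0.98 ± 0.23 and −0.85 ± 0.17, below the size a call needs. Among genes that fell, *DLAH* had a difference of −3.65 ± 1.00 (adjusted p = 0.0249), at 0.0846, 0.306 and 0.192 CPM at T and at 0, 0 and 0.0481 CPM at P + T. It rests on single counts, depends on the prior count and was not called when either of replicates 1 and 2 at P + T or of replicates 2 and 3 at T was left out. The kinase gene *AT5G06740* and the NLR gene *AT5G38340* fell further in P + T/P than in T/NHS, with differences of −1.88 ± 0.45 and −1.05 ± 0.32, the latter with an adjusted p of 0.0449 in edgeR and 0.099 in DESeq2. Of 90 genes that fell and had a lower log2FC in P + T/P, 75 were called below T at P + T and none was above NHS at P. Selection on the difference favours such calls too.

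**Figure D4:**
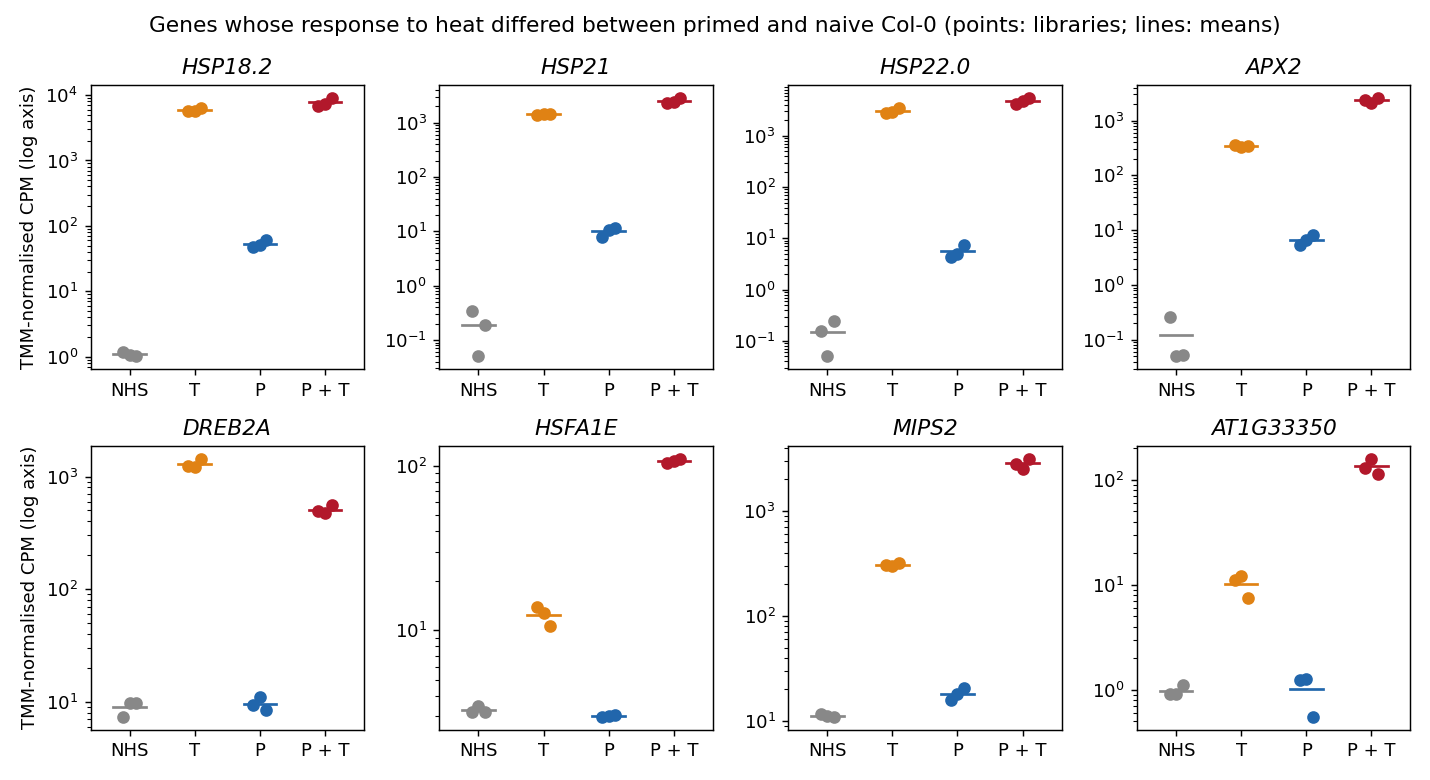
TMM-normalised CPM on log axes for 8 genes whose response differed between naive (T/NHS) and primed (P + T/P) Col-0, with a point per library and a line at each mean. *HSP18.2*, *HSP21*, *HSP22.0* and *APX2* stand higher at P than at NHS, *DREB2A* stands lower at P + T than at T, and *HSFA1E*, *MIPS2* and *AT1G33350* stand higher at P + T than at T.

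Most tested loci of a block on chromosome 2 rose. Of 116 loci in the count tables from *AT2G07660* to *AT2G07810*, 42 passed the filter on low counts. They lie between positions 3240494 and 3527500 of chromosome 2 in TAIR10.1. Of these 42, 40 rose and none fell, against 9.73% up over all genes tested. The filter used all 36 libraries, so loci near 0 at P could pass through the heated groups alone. This favours loci that rose, and the count describes the tested loci only. Arabidopsis carries a large copy of its mitochondrial genome in this stretch. When the loci were aligned to the mitochondrial genome of the same assembly, 40 were covered by a match over at least 90% of their length, with a best identity of 99.72% or more (median 99.95%), and all 40 rose. The other two, *AT2G07680* (a transporter gene) and *AT2G07690* (a gene for a replication licensing protein), had no match and log2FC of −0.41 and −0.11. The median log2FC of the 42 was 6.02, or 4.37 with genes at or under 3 counts set to that bound. *AT2G07722* went from 0.2001, 0.366 and 0.184 to 166, 106 and 162 CPM (log2FC 9.16 ± 0.42), and the ratio for *AT2G07779* was 655 (181 to 5414) from at most 1 count in a P library. The first HS gave the same count, 40 up in T/NHS, and no difference between the responses was called. No organelle gene is in the count tables, and reads of the chromosome 2 copy and of the mitochondrial genome cannot be told apart at this identity.

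**Figure D5:**
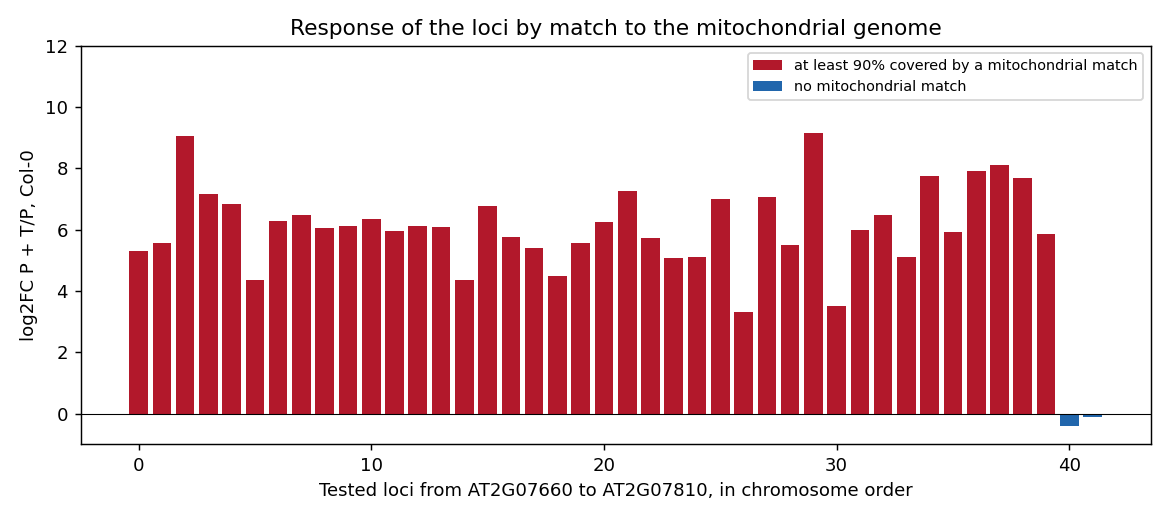
Log2FC in P + T/P of the 42 tested loci from *AT2G07660* to *AT2G07810* in chromosome order (red, at least 90% of the length covered by a match to the mitochondrial genome; blue, no match). The 40 red loci rose by 3.32 to 9.16, and the 2 blue ones lie at −0.41 and −0.11.

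A set of near-identical pseudogene loci also rose. RefSeq annotates the 8 as uncharacterized, single-exon pseudogenes on chromosomes 1, 3 and 5 with exon lengths of 3880 to 4295 bases. Their pairwise identity was 97.2% to 99.9% over the aligned part. A read that fits more than 1 of them cannot be assigned to a single locus. All 8 rose, with a median log2FC of 6.52, and all 8 rose in T/NHS. Here too the filter could be passed through the heated groups alone, so these counts only describe the loci. *AT1G48710* was at 0.175, 0.288 and 0.316 CPM at P and at 43.8, 32.2 and 35.96 CPM at P + T, with 34.7, 34.2 and 44.8 CPM at T and at most 2 counts in an NHS library. Its difference of −3.15 ± 0.64 (adjusted p = 0.00176) depends on the prior count of the model and was not called without replicate 3 of every group (adjusted p = 0.12). *AT3G32415* went from 0.0250, 0.209 and 0 to 16.5, 13.6 and 11.3 CPM (log2FC 7.41 ± 0.39) and had no read in any NHS library.

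Called genes differed from others in structure and type. A single exon was annotated for 24.7% of genes up and 34.8% of genes down, against 11.9% of genes not called and 17.2% of all tested. Among up genes with a log2FC above 5 the share was 42.0%. This set includes the 8 near-identical pseudogene loci (lowest log2FC 5.35), all with a single exon, and many of the chromosome 2 loci. Of the 42 chromosome 2 loci tested, 26 had a single exon (61.9%). The share without these loci was not taken. Single-exon genes made up 64.7% of the PPR list, 92.9% of the SAUR list and 75.0% of the cytosolic small HSPs. The median exon length was 1575 bases for genes up and 1909 for genes down, and 1765 for all tested. Against 9.73% up and 17.6% down over all genes tested, 11 of 29 small nucleolar RNA genes rose (37.9%) and none fell, and of 176 pseudogenes 52 rose (29.5%) and 38 fell. Without the chromosome 2 and near-identical loci, 38 of 162 pseudogenes rose and 38 fell. The libraries were made from polyadenylated RNA, which small nucleolar RNA as a rule is not, and reads of host or overlapping genes were not separated from these.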

How the data were processed

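Poly(A) RNA of whole seedlings was sequenced as paired 150-base reads on DNBseq. The authors aligned the reads to TAIR10 with STAR 2.7.10a, whose gene counting gave the raw counts deposited for each library (read pairs per gene, not normalised; the strand setting is not given in the sources used here). The tables list 36632 genes and no organelle gene. No per-sample column was left unmapped.

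The 36 libraries in 12 groups were fitted together with the quasi-likelihood test of edgeR 4.0.16 (R 4.3.3, limma 3.58.1), after filterByExpr (minimum count 10, minimum total 15) and TMM scaling. Every adjusted p is from this test with Benjamini-Hochberg adjustment over the 20847 genes tested. A call needed an adjusted p under 0.05 and an absolute log2FC above 1. The test was checked on simulated counts. Intervals of ratios are exact at 95% and, like the floor of 3 counts, cover counting error only. Gene names, positions and promoter sequence are from RefSeq's TAIR10.1, the same locus identifiers as the counts.

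Of the 133 named genes, 124 were, from each list, up to 2 called members with the highest and 2 with the lowest log2FC in P + T/P and a mean of at least 1 CPM; over all such genes, the 10 highest and 10 lowest; the 5 highest and 5 lowest differences from T/NHS; and 11 heat genes always included. The 133 also hold 9 shoot and root markers that are named as markers alone. Members and lists were chosen with earlier results of these data known. Lists were corrected by annotation once the count tables had been read (photosynthesis, ribosomal and F-box patterns, the range of chromosome 2 loci, the name of the pseudogene list). Replicate numbers are shared between groups. Over 13382 genes, deviations of same-numbered P and P + T libraries correlated by 0.198, 0.221 and 0.478, and the pairing comes from these data alone. T and NHS gave 0.109, −0.128 and 0.550. Alternatives were DESeq2 1.42.0, its size factors, library size alone, other filters, a test against a log2FC of 1 (glmTreat), smaller sets of libraries, a replicate block and leaving out each library.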

Additional observations from a re-analysis of the deposited data

Results flagged for a closer look

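The named genes whose response in P + T/P differed from that in T/NHS by the test of the difference itself (edgeR, adjusted over all genes tested) are given with that difference on the log2 scale. Among genes that rose in P + T/P, it was 4.70 for *HB21*, 3.87 for *HAI3*, 3.64 for *AT1G33350*, 3.46 for *AT4G20350*, 3.31 for *AT2G21820* and 3.23 for *HSFA1E*. It was 2.55 for the NLR gene *AT4G16940*, 2.51 for *MIPS2*, 2.13 for the SAUR gene *AT3G61900* and 1.36 for the ribosomal gene *AT5G63300*. Lower responses were those of *HSP18.2* (−5.24), *HSP21* (−4.84), *ATHSP22.0* (HSP22.0, −4.54), *AT1G48710* (−3.15), *APX2* (−2.96) and *DREB2A* (−1.46). Among genes that fell, *DLAH* (−3.65), *AT5G06740* (−1.88) and *AT5G38340* (−1.05) fell further in P + T/P. *MIPS2*, *AT1G33350*, *AT4G20350*, *AT5G63300* and *DREB2A* overlap another annotated gene, and their reads were not separated from it. No cause of these differences was tested.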

How the results depend on the processing

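No call of a named gene turned to the opposite direction in an alternative that was run. Under library size alone 4 shoot markers with no call turned negative, *RBCS1A* (−0.59), *CAB1* (−0.51), *RBCS1B* (−0.30) and *LHCB2.2* (−0.24). Scaling by library size alone gave 1136 genes up and 8598 down. Testing against a log2FC of 1 gave 1959 genes down, and 57 with a higher and 7 with a lower response than in T/NHS. In that test (glmTreat) 19 results of named genes lost their call. Among them were the differences of *DREB2A* (adjusted p = 0.977), *AT5G06740* (0.838), *HSP22.0* (0.145) and *AT5G63300*. With the replicate block for the pairing of P and P + T, 2033 genes were up and 3685 down, 457 had a higher and 206 a lower response, and no call of a named gene changed. DESeq2 gave 2147, 3484, 456 and 184. A fit of only the 6 Col-0 libraries at P and P + T gave 1957 genes up and 3335 down. Leaving out single libraries, or replicate 3 of every group (chosen after seeing the data), gave 2008 to 2113 genes up, 3397 to 3764 down, 315 to 442 higher and 105 to 199 lower. Under library size alone 13 results of named genes lost their call, among them *APX1*, *HY5*, *PIF7*, *EXPA8*, *RBCS2B* and *ATG8H*. *PHYE* lost it under DESeq2, *PSBY* without replicate 1 or 2 at P or replicate 3 at P + T, *CYCB1;5* without replicate 1 at P + T and *AT3G09480* without replicate 3 at P + T. *DLAH*, *HAI3*, *AT1G48710*, *AT3G61900* and *AT5G38340* lost the call of a different response without 1 library or without replicate 3 of every group, and all but *AT3G61900* and *AT5G38340* had 3 counts or fewer in every library of a group.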
